A study of Homo sapiens with 2 samples.

Results

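The mRNAs described here are those of FLNA, TLN1, TLN2, MYH9, MYH10, MYH14, AHNAK, DYNC1H1 and VCL, which encode large proteins of the actin cytoskeleton and of microtubule transport. They were chosen by symbol as long actin and motor genes, and all 9 were found among the 14914 features of the deposited table. RNA immunoprecipitation sequencing (RIP-seq) was done in HUH7 cells, an established human hepatocellular carcinoma line, with no genetic change or treatment named in the labels. One library held RNA recovered with CSTF2 (the IP) and 1 was made from the input RNA (the Input), so the comparison asks which RNAs were recovered with CSTF2. CSTF2, a subunit of the cleavage stimulation factor, contacts the RNA directly. A mock immunoprecipitation was not used here, so recovery with CSTF2 and recovery by the beads or antibody cannot be told apart.

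Filamin A crosslinks actin filaments into networks and ties them to the membrane. Talin links integrins to actin at focal adhesions, and vinculin reinforces that link under load. Nonmuscle myosin II, a motor of paired heavy chains with light chains, pulls on actin filaments, while cytoplasmic dynein carries cargo toward the minus ends of microtubules. AHNAK is a giant scaffold protein found at the plasma membrane. CSTF2 binds U-rich and GU-rich RNA just downstream of the site where a pre-mRNA is cut and polyadenylated, after the upstream hexamer AAUAAA has been recognised by another factor.

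The depth was 3220045 assigned reads for the IP and 9517885 for the Input, of which 61.8% and 61.6% fell in mitochondrially encoded features. With 1 library a group there is no replicate error, and no p-value or SD is given. Intervals are exact 95% intervals of the ratio from recovered read numbers. They cover counting error only, and reads amplified by PCR with no molecular identifier can be copies of 1 molecule. The mRNA of the bait itself had 6.97 RPKM in the Input and 487 RPKM in the IP, where RPKM is the number of reads scaled to gene length and library depth. All 10 hepatocyte and hepatoma markers were listed, with summed levels of 810 RPKM in the Input and 779 RPKM in the IP. Of 12 muscle markers 3 were listed, TTN, MYH3 and MYH11, with a summed level of 0.509 RPKM in the Input and 3.35 RPKM in the IP. Desmin (DES) and the striated actins ACTA1 and ACTC1 were not listed. The blood markers had 1 of 6 listed (1.55 RPKM in the Input and 0.704 RPKM in the IP) and the fibroblast and endothelial markers 3 of 8 (8.49 and 7.32 RPKM in sum). The part of such cells in the results was not tested.

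Because CSTF2 acts where transcripts end, the last 30 bases of the annotated transcript are shown for the mRNA with the highest ratio (AHNAK), the most abundant one (MYH9), the one with the lowest ratio (VCL) and the one without the hexamer (TLN1). They are GENCODE v29 transcript sequences (GRCh38), 5′ to 3′ with T for U, and capitals mark AATAAA.
AHNAK: tacaaggcaAATAAAgctgtttattaacct
MYH9: catcacAATAAAgagaaccatgtgctacga
VCL: taaaacAATAAAatgcatttgtataaaaaa
TLN1: aattttcaaaagaagctttgctaaaaataa
These windows lie on chromosome 11 from 62515905 to 62515934 (minus strand), chromosome 22 from 36281277 to 36281306 (minus), chromosome 10 from 74120131 to 74120160 (plus) and chromosome 9 from 35696948 to 35696977 (minus). AATAAA was present within the last 30 bases for 7 of the 9 mRNAs, starting 21 to 26 bases before the end. In MYH10 it began 31 bases before the end, just outside that window. On the transcript strand, AATAAA stood in the last 30 bases of 51.7% of 7595 protein-coding genes. With ATTAAA counted too it was 64.1%, and 75.1% in the last 50 bases. AHNAK and VCL, with the highest and the lowest ratio of the 9, both had AATAAA, 21 and 24 bases before the end. Whether the hexamer goes with the ratio was not tested. The last place of VCL does not hold less the reads of an overlapping gene, as given below. Which annotated end the reads came from was not tested.

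Every one of the 9 mRNAs had a higher level in the IP than in the Input. The IP/Input ratio of RPKM ran from 1.65 (VCL) to 4.56 (AHNAK) with a median of 3.39 over all 9, beside a median of 1.25 over the 14108 features with reads in both libraries. The ratio was at least 2 for 8 of 9, where 24.1% of those features, and 21.1% of the protein-coding ones, reached 2. The counting interval lay above 1 for 9 of 9, against 32.7% of the features. Together the 9 mRNAs took 6602 IP reads, 0.616% of the reads of nuclear protein-coding genes (Wilson interval 0.601 to 0.631), and 5675 Input reads, 0.206% (0.201 to 0.212). In bulk RNA, the number of cells that hold an mRNA and its amount per cell cannot be told apart.

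**Figure D1:**
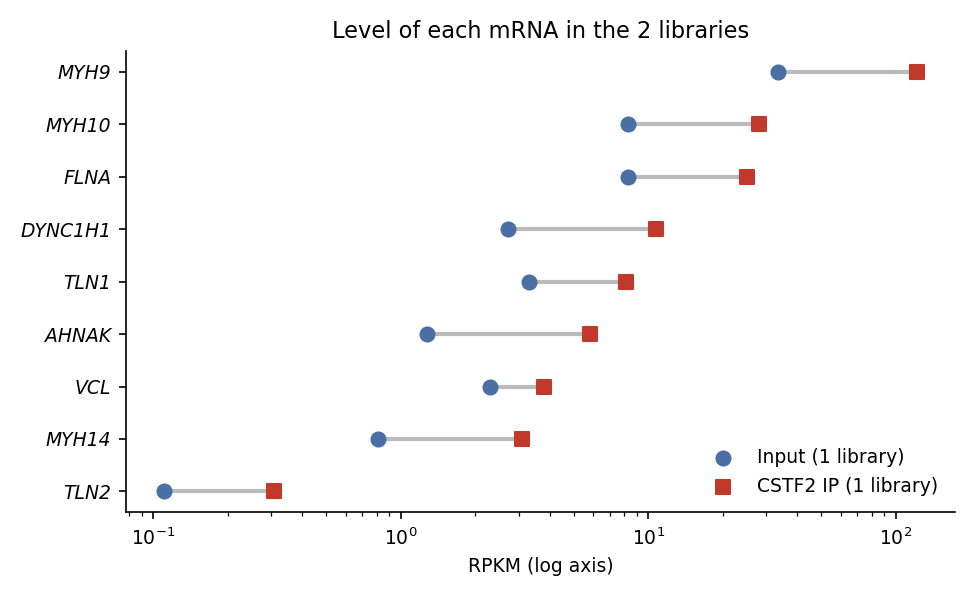
RPKM (log axis) of the 9 mRNAs in the Input (circles) and the CSTF2 IP (squares), 1 library each and joined by a line, ordered by IP level. Each square lies to the right of its circle, from TLN2 at 0.110 and 0.306 RPKM to MYH9 at 33.5 and 122 RPKM.

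Among the motors that pull on actin, MYH9 (nonmuscle myosin heavy chain IIA) was the most abundant of the 9. It had 33.5 RPKM in the Input (2859 reads) and 122 RPKM in the IP (3520 reads), a ratio of 3.64 (3.46 to 3.82). By level it stood at rank 615 of 9880 features in the Input and at rank 154 in the IP. MYH10 (heavy chain IIB) had 8.27 RPKM in the Input and 28.0 RPKM in the IP, a ratio of 3.39 (3.06 to 3.75). MYH14 (heavy chain IIC) had 0.806 RPKM in the Input and 3.10 RPKM in the IP, 3.85-fold higher (2.83 to 5.26) on 76 and 99 reads. The 3 heavy chains kept nearly the same proportions in both libraries. MYH9 made up 78.7% of their summed RPKM in the Input and 79.7% in the IP, MYH10 19.4% and 18.3%, and MYH14 1.89% and 2.03%. The ratio of MYH9 was 1.07 times that of MYH10 (0.958 to 1.20) and 0.945 times that of MYH14 (0.689 to 1.29), so neither pair differed beyond counting error, and differences of up to those bounds are allowed by the reads.

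The 3 heavy chains are paralogs, so the transcripts were searched for stretches that a short read could not assign. No window of 50 bases was identical between any pair of them. The longest run, shown because it is the longest found between these transcripts, was 40 bases between MYH9 (from base 1785 of the transcript) and MYH14 (from base 1648).
MYH9 and MYH14: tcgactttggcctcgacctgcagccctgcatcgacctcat
The longest run of MYH9 with MYH10 was 31 bases, and the talins shared at most 25 bases. Each gene was represented by a single transcript. Other isoforms, other myosin genes and pseudogenes were not searched.

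Among the proteins of adhesions and the cortex, FLNA had 8.29 RPKM in the Input (835 reads) and 25.1 RPKM in the IP (855 reads), 3.03-fold higher (2.75 to 3.33). FLNA and MYH10 took neighbouring places among the 9 in both libraries, and the ranges of their ratios overlap. TLN1 (talin 1, the broadly expressed talin) had 3.29 RPKM in the Input and 8.12 RPKM in the IP, 2.47-fold higher (2.09 to 2.92). TLN2 was the least abundant of the 9, with 0.110 RPKM and 17 reads in the Input and 0.306 RPKM and 16 reads in the IP. Its ratio of 2.78 had a wide interval, 1.32 to 5.86, and it did not differ from that of TLN1 beyond counting error (TLN1 over TLN2 0.888, 0.413 to 1.92). TLN1 made up 96.8% of the summed talin level in the Input and 96.4% in the IP.

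VCL (vinculin) had the smallest ratio, with 2.29 RPKM in the Input (218 reads) and 3.79 RPKM in the IP (122 reads), 1.65-fold higher (1.31 to 2.07). The ratio of TLN1 was 1.49 times that of its partner vinculin (1.12 to 1.99). The value of VCL is touched by a neighbour: AP3M1, which encodes an adaptor subunit for vesicle transport, lies on the opposite strand and shares 1109 exon bases with the end of VCL. AP3M1 was 3.20-fold lower in the IP (1.72 to 6.61), with 104 reads in the Input and 11 in the IP. Strand is not stated to have been kept, so shared bases can credit reads to both genes. If every AP3M1 read were also a VCL read, VCL less those reads would have 111 in the IP and 114 in the Input, 2.88-fold higher (2.20 to 3.77), past 2-fold. TLN1, with its own reads unchanged, would then have 0.859 times the ratio of VCL (0.623 to 1.18), so the order of these partners is not fixed by the data. The share of reads in the overlap was not tested, and AP3M1 begins at 74120255, beyond the end of the VCL transcript shown above. TLN1 shared 61 exon bases with CREB3 and MYH10 72 with NDEL1, both on the opposite strand. Less every read of those neighbours, as a bound, the ratio of TLN1 would be 3.33 (2.77 to 4.02) and that of MYH10 5.11 (4.51 to 5.80), above the value of AHNAK. With both TLN1 and VCL less their neighbours' reads, TLN1 (3.33) would again lie above VCL (2.88), with overlapping intervals. The shared bases are few of the 1903 counted for CREB3 and the 7955 counted for NDEL1, so these bounds are extreme. The share of reads in them was not tested. Genes that were not listed also overlap members on the opposite strand. AL118558.1 shares 1033 exon bases with DYNC1H1, AC103740.1 847 with TLN2, AC008655.1 457 with MYH14 and AC245140.3 44 with FLNA. Their reads are not known, so no such bound can be given for these members.

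AHNAK had the highest ratio. It had 1.27 RPKM in the Input (236 reads) and 5.81 RPKM in the IP (364 reads), 4.56-fold higher (3.86 to 5.39), and went from the seventh to the sixth place among the 9. DYNC1H1, the heavy chain that holds the motor of cytoplasmic dynein, had 2.71 RPKM in the Input (408 reads) and 10.8 RPKM in the IP (548 reads), 3.97-fold higher (3.49 to 4.52). The authors' deposited table gives log2 fold changes of 0.73 for VCL, 1.99 for DYNC1H1 and 2.19 for AHNAK, computed from the same reads. By ratio the 9 ranked AHNAK, DYNC1H1, MYH14, MYH9, MYH10, FLNA, TLN2, TLN1 and VCL. In this order each neighbouring pair had overlapping intervals except TLN1 and VCL, and that exception and the last place of VCL do not hold less the reads of AP3M1. The place of MYH10 would move to the first less every read of NDEL1. That is an extreme bound, since 72 exon bases are shared there, against 1109 with AP3M1. Farther apart, AHNAK did not overlap MYH9, and MYH9 and MYH10 did not overlap TLN1.

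**Figure D2:**
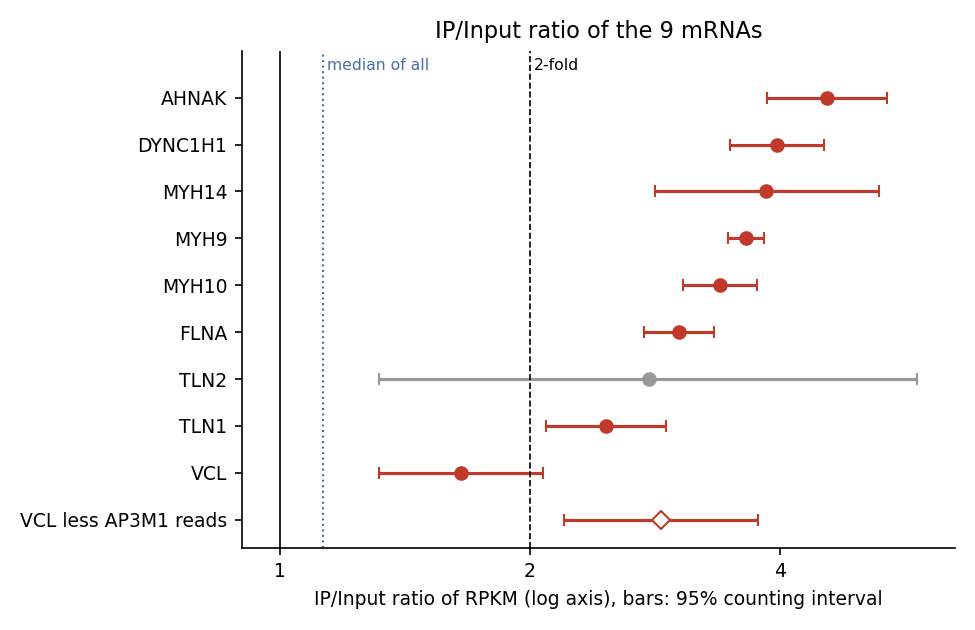
IP/Input ratio of RPKM (log axis) with its 95% counting interval for the 9 mRNAs. The solid line marks 1, the dotted line the median ratio of features past the expression filter (1.13, from the pseudocount scale), the dashed line 2-fold. TLN2 (grey) is below the filter, and the open diamond is VCL without the reads of AP3M1. Of the 9 intervals 7 lie wholly above 2, from TLN1 (2.09 to 2.92) to AHNAK (3.86 to 5.39).

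On the scale used to count genes, log2((IP + 1)/(Input + 1)) of RPKM with a mean of at least 1 RPKM, 8 of the 9 could be counted and 7 were at least 2-fold higher. The pseudocount of 1 RPKM understates the change of low genes. Of all 9880 features past that filter, 9.88% were at least 2-fold higher and 6.83% lower by that much (976 and 675), and of the 7626 protein-coding ones 5.81% and 5.19%. With ratios centred on the median of all features the counts were 684 higher and 944 lower, and 6 of the mRNAs were then higher, TLN1 falling short at a log2 ratio of 0.92. With a pseudocount of 5 RPKM 4 were. MYH14 passed the filter only through its IP level, and TLN2 did not pass it. The log2 ratios were 1.83 for MYH9, 1.66 for DYNC1H1, 1.65 for MYH10, 1.58 for AHNAK, 1.49 for FLNA, 1.18 for MYH14, 1.09 for TLN1 and 0.54 for VCL, beside a median of 0.17 over all features. The counting interval lay wholly above 2-fold for 7 of the 9, against 6.76% of the 9880 features.

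The 9 genes were picked for length, and among protein-coding features the ratio moved with length. Over all features it did not do so evenly: those below 1 kb, many of them noncoding, had 28.0% at least 2-fold higher and those of at least 8 kb 12.2%, with less in between. The counted exon lengths of the 9 were 8.96 to 19.5 kb. Among the 1072 protein-coding features at least as long as MYH9, the shortest of them, 13.3% were at least 2-fold higher and 0.28% lower by that much, with a median log2 ratio of 0.50, and the interval lay above 2-fold for 17.4%. These 1072 include 8 of the 9. The share of features at least 2-fold higher was therefore larger among long genes than among all protein-coding genes.

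The length of the coding sequence tracked the ratio more closely than that of the whole transcript, a relation looked for after the values were seen. Over 7595 protein-coding genes, Spearman's rho with the log2 ratio was 0.57 for coding length, 0.41 for transcript length and 0.11 for the noncoding part. Genes are not independent replicates, and these properties are correlated with each other. The median log2 ratio went from -0.29 for 2509 genes with a coding sequence below 1 kb through 0.16, 0.39 and 0.57 to 0.81 for 356 genes of at least 5 kb. Among the 2509 genes below 1 kb, 2.03% were at least 2-fold higher and 13.8% lower by that much. Of the 356 genes of at least 5 kb, 32.3% were at least 2-fold higher and 0.0% lower by that much. Of the 9 mRNAs 7 are in this class (TLN2 was below the filter), and these 7 were at least 2-fold higher. MYH14 among them passed the filter only through its IP level, so its call follows in part from the filter and is no support. VCL, with the shortest coding sequence of the 9 (3402 bases), lay in the class of 3 to 5 kb, where 13.7% were higher and where its log2 ratio of 0.54 was close to the median of 0.57. Among the 349 other genes of at least 5 kb, 108 were at least 2-fold higher, the median was 0.81 (quartiles 0.56 and 1.06), and 18 had a log2 ratio above 1.54, the median of the 8 mRNAs counted.

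**Figure D3:**
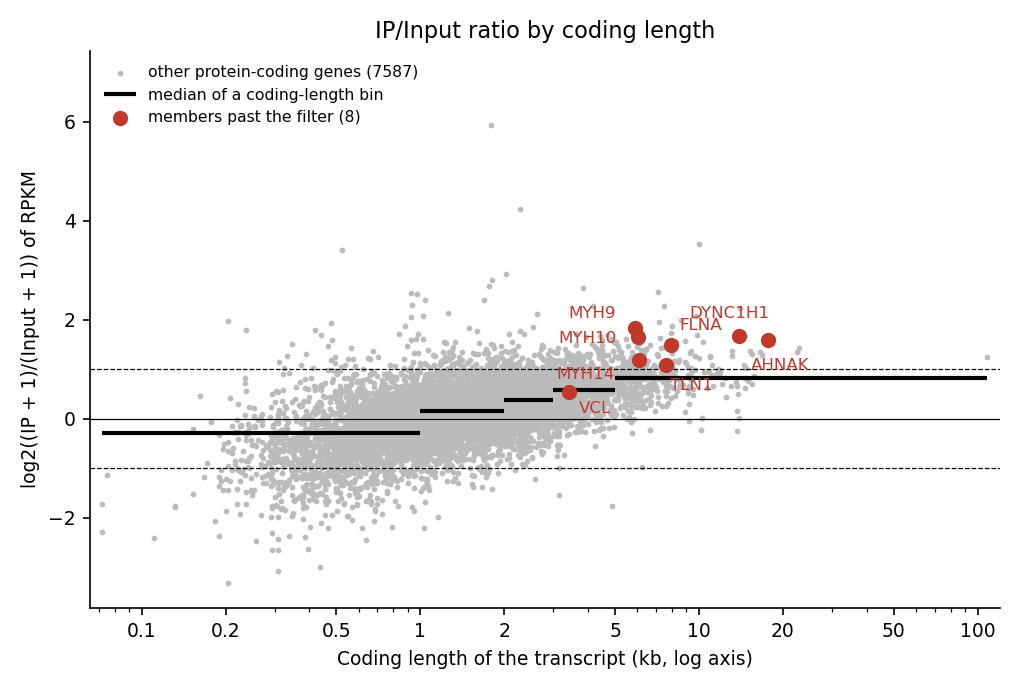
log2((IP + 1)/(Input + 1)) of RPKM against coding length (kb, log axis) for 7595 protein-coding genes past the filter, 1 point a gene, with the 8 counted mRNAs in red. Black bars are medians of 5 coding-length classes, which step from -0.29 to 0.81, and dashed lines mark 2-fold; VCL sits near the bar of its class and the other 7 above theirs.

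The ratio varied widely among genes with a long coding sequence. APOB, for the apolipoprotein of liver lipoproteins, has a coding sequence of 13689 bases, near that of DYNC1H1 with 13938, and had 55.0 RPKM in the Input and 45.9 RPKM in the IP. NACA, whose longest transcript encodes a muscle form of a nascent chain-binding protein, was 2.00-fold lower by ratio. With the pseudocount its log2 ratio was -0.97, so it was not counted as lower. Which form of NACA its reads came from was not tested, so its place among long coding sequences is uncertain. VCAN, for the matrix proteoglycan versican, with 10188 coding bases, had 2.15 RPKM in the Input and 1.68 RPKM in the IP. By log2 ratio with the pseudocount, the highest was PCNT, for the centrosomal scaffold pericentrin, at 3.53 (18.3-fold higher by ratio). SPTBN1 and SPTAN1, for spectrin chains beneath the membrane, came next at 2.56 and 2.29 (6.06-fold and 5.59-fold). PLEC, for the cytoskeletal linker plectin, followed at 2.23 (6.99-fold). These 7 genes were chosen after their values were seen, among the 4 lowest and 4 highest of the class, and only 9 of the 349 other genes had a log2 ratio below 0.

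The 9 mRNAs shared other sequence features that the choice did not use. All had a GC content above the median of protein-coding genes (48.6%), from 49.0% in MYH10 to 63.7% in MYH14, although the median of the 1072 long genes was lower, 45.4%. All were mostly coding, from 62.0% of the transcript in VCL to 94.1% in AHNAK, against a median of 53.9%. Among the 356 genes with at least 5 kb of coding sequence, rho of the log2 ratio was 0.50 with GC content and 0.19 with coding length. The words TGTGT and TTTTT, searched on the transcript strand with overlapping matches counted, stand for the GU-rich and U-rich RNA that CSTF2 binds. TGTGT occurred 0.235 (FLNA) to 1.60 (TLN2) times per kb and exceeded the median of 1.26 in 1 of the 9. TTTTT exceeded the median of 2.55 per kb only in DYNC1H1, at 4.45 per kb, and FLNA had none. The DYNC1H1 transcript used has 20003 bases, more than the 15826 over which its reads were counted. Its sequence features therefore include bases outside the counted length. Across the 7595 genes, rho with the log2 ratio was -0.03 for TGTGT and -0.15 for TTTTT per kb. The transcripts used hold no sequence downstream of the cleavage site, where CSTF2 binds.

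Partner genes from 8 lists, chosen with earlier results of these data known, held 184 names, of which 162 were listed and 136 passed the filter. Of these, 14 (10.3%) were at least 2-fold higher and 7 (5.15%) lower by that much. All 136 are protein-coding, and of all protein-coding features past the filter 5.81% were higher and 5.19% lower. Those shares are the background of the counts given for each list below. The lists hold few genes, and neither they nor the gene pairs compared below were matched for coding length. Of genes with a coding sequence below 1 kb, 13.8% were at least 2-fold lower. Centred on the median, the partner genes higher and lower were 9 and 8. By length, the 36 at least as long as MYH9 had 8 higher and 0 lower with a median log2 ratio of 0.63, and the 100 shorter ones 6 higher and 7 lower with a median of 0.06.

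Of the myosin II light chains, the abundant ones had lower levels in the IP than in the Input, unlike the heavy chains, and the scarce MYL9 had a higher one. MYL6, an essential light chain, had 105.5 RPKM in the Input and 88.0 RPKM in the IP, and MYL12B, a regulatory light chain, 84.5 RPKM and 63.3 RPKM. In the Input MYL6 stood at 3.15 times the RPKM of MYH9, and in the IP at 0.721 times. The ratio of MYH9 was 4.36 times that of MYL6 (4.03 to 4.73) and 4.86 times that of MYL12B (4.28 to 5.53). MYL9, another regulatory light chain, had 0.521 RPKM in the Input (14 reads) and 1.98 RPKM in the IP (18 reads), a ratio of 3.80 (1.79 to 8.26) within the range of the heavy chains. Of 17 light chains and regulators past the filter, 2 were at least 2-fold higher and none lower. Both are long kinase genes: CIT, for citron kinase, at 3.92-fold (3.06 to 5.04) and MYLK, for myosin light chain kinase, at 3.33-fold (2.75 to 4.03). Both passed the filter only through their IP level, with 0.921 and 0.981 RPKM in the Input, so that count is no support for a difference. The lowest were MYL12A at 1.67-fold lower and PPP1CB, for the catalytic subunit of myosin phosphatase, at 1.85-fold lower (1.53 to 2.26).

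The partner with the lowest log2 ratio was a light chain of dynein. DYNLL1, an LC8 light chain, had 33.2 RPKM in the Input and 7.88 RPKM in the IP, 4.21-fold lower (3.32 to 5.40). DYNLRB1, a roadblock light chain, was 3.07-fold lower (2.43 to 3.91). These were the 2 of 10 dynein subunits at least 2-fold lower, and 0 were higher. The list was not matched for coding length, and of genes with a coding sequence below 1 kb 13.8% were lower by that much. DYNLL2, the other LC8 light chain, had a ratio of 1.05 (0.855 to 1.29). DYNLL2 and, above, MYL9 were named after their values were seen. WDR34 and WDR60, intermediate chains of the ciliary dynein, had the highest log2 ratios at 0.32 and 0.23. The ratio of DYNC1H1 was 16.7 times that of DYNLL1 (12.7 to 22.1) and 3.87 times that of the intermediate chain DYNC1I2 (3.16 to 4.75). Of 26 dynactin, LIS1 and adaptor genes, 5 (19.2%) were at least 2-fold higher and 0 lower. NINL, for a centrosomal adaptor, was 3.64-fold higher and NUMA1, which anchors dynein at the spindle poles and cortex, 3.24-fold. ACTR10 was 2.28-fold lower by ratio (1.32 to 4.22) and DCTN6 1.90-fold (1.14 to 3.33), neither past 2-fold once the pseudocount is added. DCTN1, the largest dynactin subunit, was 2.04-fold higher by ratio (1.78 to 2.32).

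Other actin crosslinkers and membrane linkers were higher in part. Of 19 past the filter, 2 (10.5%) were at least 2-fold higher and 0 lower, with a median log2 ratio of 0.62. Of the protein-coding features past the filter 5.81% were higher, and of all features 9.88%. FLII, a gelsolin family protein, was 2.32-fold higher (2.00 to 2.70). PLS3 and PALLD were at the low end, 1.22-fold and 1.34-fold lower. Of 9 unconventional myosins, 2 (22.2%) were higher and 0 lower: MYO18A at 3.42-fold and MYO9B at 3.16-fold. MYO1D was toward the low end at a ratio of 1.28 (0.941 to 1.71).

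Focal adhesion genes around talin and vinculin had 2 of 23 (8.70%) at least 2-fold higher and 0 lower, with a median log2 ratio of 0.36. Of the protein-coding features past the filter 5.81% were higher, and of all features 9.88%. The list is small and the difference from these shares was not tested. TNS3, for tensin 3, was 3.22-fold higher and GIT1 2.61-fold, while the small GTPases RAP1A and RAP1B were 1.96-fold and 1.84-fold lower. The vinculin-binding adaptor PXN (paxillin) was 2.36-fold higher (1.55 to 3.58) on 44 and 55 reads. The ratio of VCL was 0.700 times that of PXN, an interval of 0.434 to 1.13 that holds 1.

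Genes for actin and for the proteins that assemble it lay mostly, but not all, on the other side. Of 28 genes past the filter, 1 was at least 2-fold higher and 4 lower, with a median log2 ratio of -0.25. Of all protein-coding features past the filter, 5.81% were higher and 5.19% lower, and the list was not matched for coding length. ACTB (beta-actin) had 409 RPKM in the Input and 331 RPKM in the IP, and the ratio of FLNA was 3.74 times that of ACTB (3.37 to 4.15). ACTG1, the other cytoplasmic actin, had 142 RPKM in the Input and 157 RPKM in the IP, a ratio of 1.11 (1.04 to 1.17). Among the tropomyosins, TPM2 and TPM4 had ratios of 1.51 and 1.37, and TPM1 and TPM3 0.851 and 0.883. TMSB10 and TMSB4X, which sequester actin monomers, were 3.41-fold (3.22 to 3.62) and 4.54-fold lower (2.53 to 8.97). DIAPH1, a formin that elongates filaments, was 2.50-fold higher (2.27 to 2.76), and TWF2 2.30-fold higher by ratio (1.35 to 3.87). Around AHNAK, 1 of 4 genes past the filter was at least 2-fold lower and 0 higher. That was S100A10, which binds AHNAK together with annexin A2, at 2.38-fold lower (1.94 to 2.93). The next lowest was S100A6 at 1.39-fold lower, and ANXA2 was 1.15-fold higher and S100A11 1.18-fold lower. Below the filter, MYOF had a ratio of 4.34 (2.66 to 7.14) on 30 Input and 44 IP reads. ANXA1 had 2.96 (1.38 to 6.31) and DYSF 2.22 (0.634 to 7.29), on fewer reads.

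**Figure D4:**
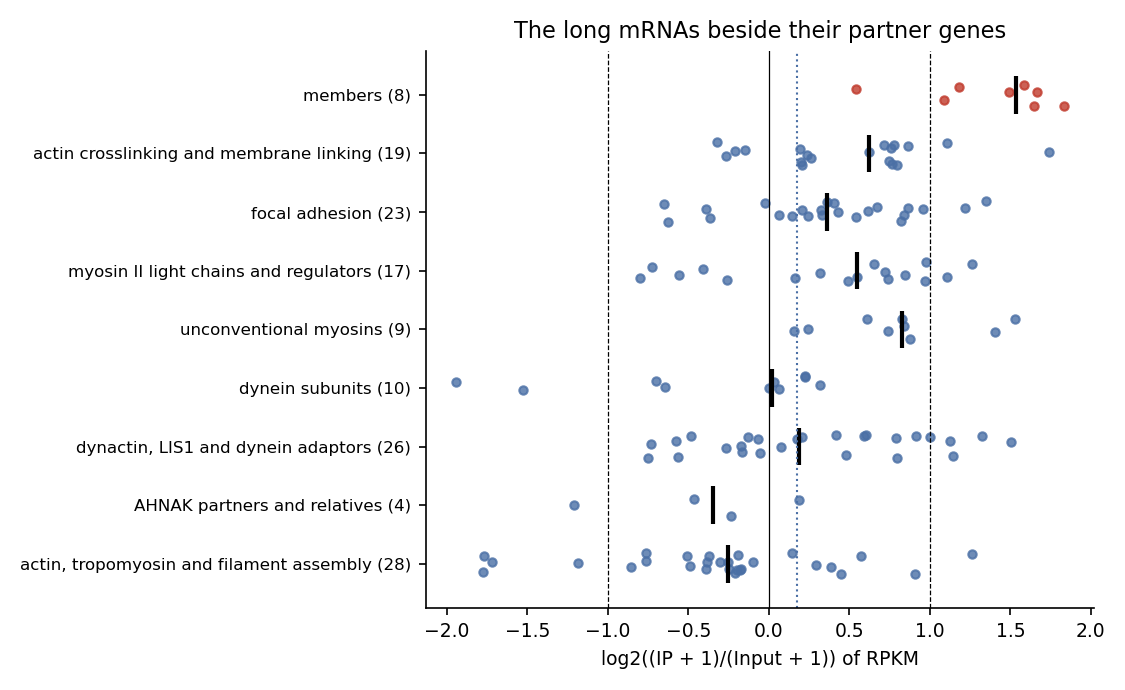
log2((IP + 1)/(Input + 1)) of RPKM for the 8 counted mRNAs (members, red) and for the genes past the filter in 8 partner lists (blue), with the number of genes in parentheses and a black bar at each median. Dashed lines mark 2-fold and the dotted line the median of all features (0.17). The red points run from 0.54 to 1.83, and dynein subunits and filament assembly genes reach down to -1.94 and -1.78.

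Some unrelated features had nearly the same pair of levels, measured as the distance in log2(RPKM + 1) over the 2 libraries. EP300, for a histone acetyltransferase, was nearest to DYNC1H1 (distance 0.023), TRIM25 to MYH14 (0.015), CERK to VCL (0.017) and MCM2 to FLNA (0.090). SNORD12C was nearest to MYH10, PKD1P6 to TLN2, a readthrough of STAG3L5P, PVRIG2P and PILRB to AHNAK, and NEAT1_1 to MYH9 at 0.43. The 2 libraries give only 2 levels a gene, so likeness here means an equal level and ratio.

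Inside MYH9 lies MIR6819, a microRNA gene of 61 bases on the same strand that directly adjoins an exon of MYH9. It had 0 reads in the Input and 9 in the IP. In the Input, a count of 0 allows up to 3 reads or 5.17 RPKM. Reads of MIR6819 cannot be told apart from those of MYH9 transcripts that cross this exon border.

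The positions on GRCh38 are given by GENCODE v29, and all 9 genes are protein-coding. FLNA lies on chromosome X from 154348524 to 154374638 (minus strand), TLN1 on chromosome 9 from 35696948 to 35732395 (minus) and TLN2 on chromosome 15 from 62390526 to 62844631 (plus). MYH9 lies on chromosome 22 from 36281277 to 36388067 (minus), MYH10 on chromosome 17 from 8474205 to 8630761 (minus) and MYH14 on chromosome 19 from 50188186 to 50310544 (plus). AHNAK lies on chromosome 11 from 62433542 to 62556235 (minus), DYNC1H1 on chromosome 14 from 101964510 to 102056443 (plus) and VCL on chromosome 10 from 73995193 to 74121363 (plus). The values are per gene over all its exons. The length counted for DYNC1H1, 15826 bases, was shorter than the 36852 bases of exon in GENCODE v29.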

How the data were processed

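The authors deposited RPKM values of the 2 libraries in 1 table, which also holds their log2 fold change between IP and Input. Per the labels' protocols, RNA was fragmented, copied from random hexamers and amplified by PCR. Per the submitters' processing notes, FastQC 0.12.0 and build hg38 were used. The annotation, aligner and read counter were not given in the sources used here. Reads were recovered by solving the deposited RPKM ratio and log2 fold change together, which gave whole reads (within 0.01) and a whole gene length for 14913 of 14914 features (PGK1 excepted). The method was tested on simulated data. Values were compared as log2((IP + 1)/(Input + 1)) with a mean of at least 1 RPKM and a 2-fold threshold, and as ratios with exact conditional (Clopper-Pearson) 95% intervals, in Python 3.11.15 with SciPy 1.17.1. For sequence features, the GENCODE v29 basic transcript with the longest coding sequence was used.

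The members and lists were chosen with earlier results of these data known. The text names all members, the bait, features overlapping a member, the nearest feature to each, and the 2 highest and 2 lowest genes of each list with at least 20 reads. Other genes, the partner pairs (15 in all) and coding length were chosen after values were seen. Alternatives were pseudocounts, filters, thresholds and scalings. Some genes that this rule names are not reported here.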

Additional observations from a re-analysis of the deposited data

How the results depend on the processing

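The number of the 9 mRNAs at least 2-fold higher (7) became 4 with a pseudocount of 5 RPKM and 0 at 4-fold, and their median log2 ratio (1.54) became 1.79 and 0.91 with pseudocounts of 0.1 and 5 RPKM. Centred on the median of all features, TLN1 had a log2 ratio of 0.92. No member reversed under any of the 13 alternatives run. Filters, thresholds and pseudocounts cannot change the sign of a log2 ratio, so those settings could not have reversed a member. Only centring, rescaling and the removal of a neighbour's reads can change it. Centring subtracts 0.17, less than the smallest log2 ratio (TLN2, 0.235), and rescaling moved TLN2 to 0.237. Each neighbour removed had a lower ratio than its member, so removal could only raise the member. The lack of a reversal is therefore no added support. The settings on 20 reads, protein-coding features and reads of overlapping genes were added after seeing the data. The partner genes higher (14) were 31, 2, 7, 45, 0 and 9 with pseudocounts of 0.1 and 5 RPKM, a filter of 5 RPKM, thresholds of 1.5-fold and 4-fold, and centring. Those lower (7) became 18 and 0 at 1.5-fold and 4-fold. Of all features, those higher (976) went to 1830 and 186 with the pseudocounts, 327 with the filter, 2569 and 151 with the thresholds, 633 with at least 20 reads and 443 for protein-coding features, and those lower (675) became 1023, 295, 407, 1484, 149 and, for protein-coding features, 396. Among features of at least 8 kb, the share higher (12.2%) became 28.6% and 2.47% with the pseudocounts, 6.88% with no filter, 25.3% with a filter of 5 RPKM, 39.3% and 0.601% with the thresholds and 7.08% when centred. Spearman's rho of the log2 ratio with exon length (0.20) became 0.13 with no filter, 0.32 with a filter of 5 RPKM, 0.32 with at least 20 reads and 0.38 for protein-coding features. The cause of these shifts was not tested. No paired analysis was possible because each group has 1 library. With 17 and 16 reads, TLN2 is limited by depth.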
